A study of Mus musculus with 12 samples.

Results

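The collagen chains other than those of type IV were followed in mouse hearts after acute myocardial infarction (AMI). The chains were taken by name, with the type IV genes left out. A symbol had to be Col, a type number, the letter a and a chain number. This gave 38 genes of the 53801 in the tables. The chains, and the gene lists and ratios used below, were chosen with earlier results of these data known. RNA from whole hearts of male C57BL/6N mice, 10 to 14 weeks old and with no transgene or deletion, was sequenced with 4 hearts in each of 3 groups. The day 1 AMI and day 7 AMI hearts were taken 1 and 7 days after permanent ligation of the left coronary artery. The sham hearts had surgery, and the day on which they were taken is not given in the sources used here. Infarct, border and remote muscle were sequenced together, so a level is an average over the whole heart, and more collagen-making cells cannot be told apart from more collagen RNA in each cell. Each group is a set of separate mice.

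Collagens are proteins in which chains wind around each other into a stiff helix, which is secreted, trimmed and cross-linked outside the cell. Types I and III form most of the fibrils of the heart, type V starts those fibrils and limits their width, and other types bind to fibril surfaces, anchor cells to the matrix or build fine networks. After an infarct, dead muscle is replaced by a collagen scar made mainly by activated fibroblasts. The type IV chains build basement membranes and serve here as a comparison.

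Of the 38 chains, 30 have a promoter window in the RefSeq table used (build GRCm38.p6). The 250 bases before the start are printed for 3 chains with such a window: *Col3a1*, the most abundant, and *Col11a1* and *Col8a2*, which had the largest log2 fold changes (FCs) in day 7 AMI. The windows are chr1:45311288-45311537, chr3:114030290-114030539 and chr4:126286544-126286793, all on the plus strand. Capitals mark 3 motifs on either strand: the CCAAT box, the TATA box in the form TATAAA, and the core of the GC box, GGGCGG.
Col3a1: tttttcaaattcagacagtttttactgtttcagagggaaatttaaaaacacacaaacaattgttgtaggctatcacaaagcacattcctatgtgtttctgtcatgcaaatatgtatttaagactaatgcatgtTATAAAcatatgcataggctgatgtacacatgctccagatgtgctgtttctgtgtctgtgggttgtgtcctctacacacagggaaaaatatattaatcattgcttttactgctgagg
Col11a1: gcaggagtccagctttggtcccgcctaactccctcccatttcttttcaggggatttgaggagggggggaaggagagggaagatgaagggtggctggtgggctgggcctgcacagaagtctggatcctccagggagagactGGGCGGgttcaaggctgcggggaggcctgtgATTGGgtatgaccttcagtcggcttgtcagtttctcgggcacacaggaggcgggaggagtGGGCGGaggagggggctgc
Col8a2: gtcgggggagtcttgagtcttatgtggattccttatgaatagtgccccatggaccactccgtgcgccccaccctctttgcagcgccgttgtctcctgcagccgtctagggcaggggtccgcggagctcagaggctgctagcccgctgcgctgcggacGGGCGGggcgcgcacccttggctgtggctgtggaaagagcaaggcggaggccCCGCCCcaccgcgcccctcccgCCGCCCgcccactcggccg
The windows of *Col11a1* and *Col8a2* hold the GC box core, which Sp-family factors bind. That of *Col3a1* holds a match to TATAAA, whose first base is at -117 from the start, but no GC box core. The 30 chains have 33 windows in all. The GC box core is in 19 of these 33 (57.6%), from 18 chains, and in 32.7% of all 32851 windows in the table. The CCAAT box, which nuclear factor Y binds, is in 10 of the 33 (30.3%) and in 33.9% of all windows. The TATA box is in 5 of the 33 (15.2%) and in 12.4% of all windows. A match is a description of the letters and not a measured binding site. *Col1a1*, *Col2a1*, *Col5a2*, *Col9a3*, *Col12a1*, *Col14a1*, *Col22a1* and *Col26a1* have no entry there.

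Libraries held 23204551 to 32166517 counts, the number of reads the authors assigned to genes. Values of 3 counts or fewer in a library are at the floor, which covers counting error only. Levels within and between genes are given as the deposited TPM, which allow for gene length and for library size. Differences were tested on counts with edgeR's quasi-likelihood test in 1 fit of 12 libraries, and a gene "rose" or "fell" when its FC was 2 or greater with a Benjamini-Hochberg false discovery rate below 0.05 over 15306 genes. Normalization (TMM) factors were 0.781 to 0.917 in sham hearts, 1.01 to 1.06 in day 1 AMI and 1.1 to 1.17 in day 7 AMI. With library sizes in their place the median log2 FC of all genes against sham was 0.26 in place of -0.01 for day 1 AMI and 0.43 in place of 0.03 for day 7 AMI. The deposited TPM do not use TMM factors, and on log2(TPM + 1) that median was 0.23 and 0.44. Levels and sums in TPM carry that shift between groups, which the log2 FCs tested with TMM do not. Over all genes, 1192 rose and 456 fell on day 1 with TMM and 1764 and 217 with library sizes; on day 7 the counts were 2346 and 900 against 3633 and 318. Mitochondrial transcripts took 17.9% to 27.4% of sham counts, 12.1% to 15.9% of day 1 AMI and 13.2% to 19.2% of day 7 AMI counts. The summed level of 7 cardiomyocyte markers, among them *Myh6* and *Tnnt2*, ran from 51600 to 58500 TPM in sham, 38260 to 47070 in day 1 AMI and 31860 to 39630 in day 7 AMI hearts, so heart muscle RNA was abundant in every library.

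On day 1, 10 of the 38 chains rose against sham and none fell: *Col1a1*, *Col1a2*, *Col3a1*, *Col5a1*, *Col5a2*, *Col27a1*, *Col12a1*, *Col6a3*, *Col8a1* and *Col18a1*. Over all genes tested, 7.79% rose and 2.98% fell in that comparison. The edgeR count of 0 chains that fell was also 0 with DESeq2 and limma, and 1 chain, *Col6a6*, was lower at an unadjusted p under 0.05. On day 7, 26 chains rose against sham and *Col13a1* fell, where 15.3% of all genes rose and 5.88% fell. From day 1 to day 7, 25 chains rose and none fell, where 8.55% of all genes rose and 2.69% fell. The latter count was also 0 with DESeq2 and limma, and 1 chain, *Col13a1*, was lower at an unadjusted p under 0.05 in edgeR. The median log2 FC over the 32 tested chains was 0.50 in day 1 AMI and 2.70 in day 7 AMI against sham, beside -0.01 and 0.03 over all genes.

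The filter on low counts left out 6 chains, and 6 of the 32 tested passed it only through day 7 AMI hearts, which favours a difference. These were *Col2a1*, *Col11a1*, *Col24a1*, *Col9a2*, *Col9a3* and *Col6a5*. Among the 26 others, 21 rose in day 7 AMI against sham, 1 fell and 4 did not pass, and 19 rose from day 1 to day 7. All 6 chains named above rose from day 1 to day 7. The comparisons with sham share the sham hearts, and those with day 1 AMI share the day 1 hearts.

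In steps, 9 chains rose on day 1 and again from day 1 to day 7. *Col6a3* rose on day 1 and did not pass from day 1 to day 7. Another 16 did not pass on day 1 and rose from day 1 to day 7, and 6 passed in neither step. Counted by hearts, 13 tested chains had all 4 day 1 AMI hearts above all 4 sham hearts in normalized counts, where 19.6% of all genes did. In day 7 AMI against sham 27 did, where 28.3% of all genes did, and in day 7 AMI against day 1 AMI 28 did, where 23.5% of all genes did. Both day 7 counts hold chains that passed the filter only through day 7 AMI hearts.

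**Figure D1:**
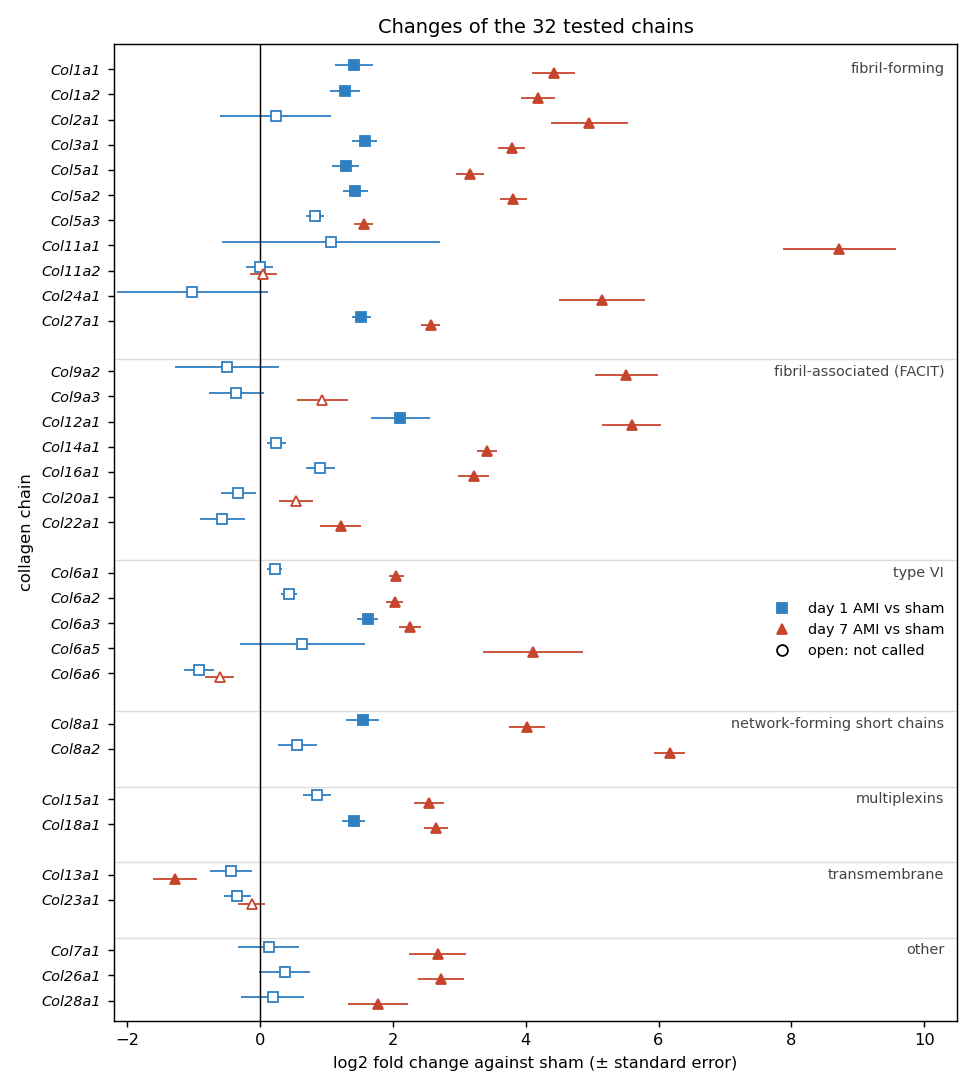
Log2 FC against sham (x axis, with standard errors) of the 32 tested chains (y axis) by structural class, squares for day 1 AMI, triangles for day 7 AMI, open symbols for changes that did not pass. Filled triangles lie right of 0 for 26 chains and left of 0 for *Col13a1*.

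The summed level of the 38 chains was 238, 244, 297 and 225 TPM in the sham hearts (replicates 1 to 4, the order used for every list of 4 values), 606, 766, 594 and 778 in day 1 AMI and 6015, 4279, 2961 and 4497 in day 7 AMI. No heart of one group reached the range of the next. The mean was 251 ± 31.4 (SD, n = 4), 686 ± 99.4 and 4438 ± 1251. *Col1a1*, *Col1a2* and *Col3a1* together made up 47.0% to 57.9% of that sum in sham, 58.3% to 65.9% in day 1 AMI and 69.3% to 76.6% in day 7 AMI hearts. The number of chains at 1 TPM or more, a level and not a detection limit, also differed: 14 to 15 chains stood at 1 TPM or more in a sham heart, 16 to 17 in a day 1 AMI heart and 23 to 27 in a day 7 AMI heart.

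**Figure D2:**
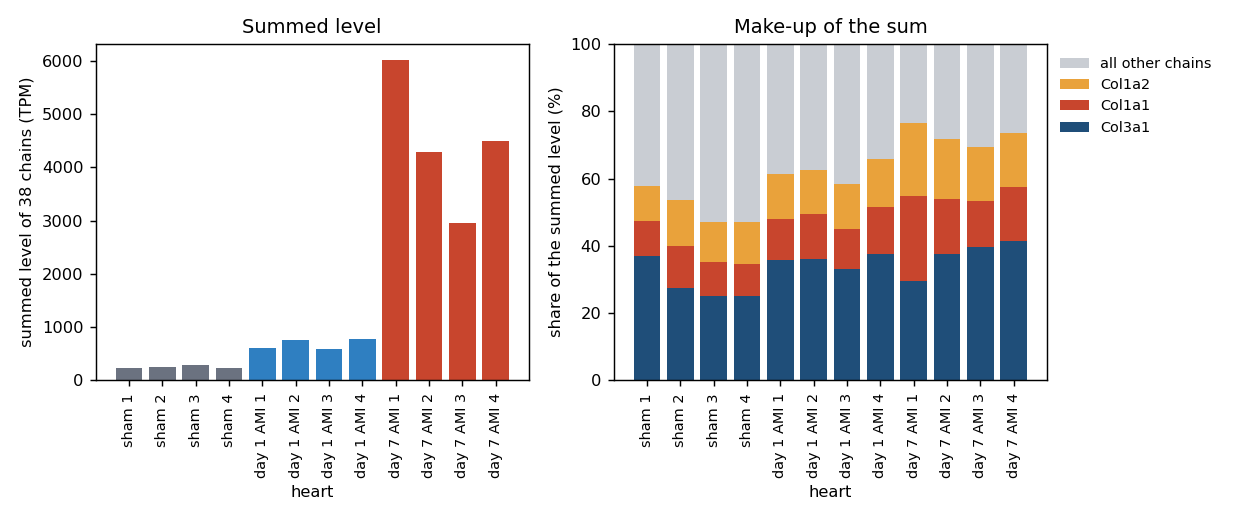
Left, summed level of the 38 chains (TPM) in each heart; right, share of that sum (%) from *Col3a1*, *Col1a1*, *Col1a2* and all other chains. Sham hearts lie between 225 and 297 TPM and day 7 AMI hearts between 2961 and 6015, and day 7 AMI replicate 1 has the largest *Col1a1* share, 25.1%.

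The fibril-forming chains of types I and III held the highest levels. *Col3a1*, which encodes the type III chain and lies at chr1:45311538-45349706 on the plus strand, was at 87.96, 66.7, 74.4 and 56.3 TPM in sham, 217, 277, 196 and 292 in day 1 AMI and 1785, 1607, 1172 and 1858 in day 7 AMI. Groups did not overlap, and the log2 FC against sham was 1.57 ± 0.19 (SE; adjusted p = 4.42e-05) on day 1 and 3.79 ± 0.20 (adjusted p = 1.08e-08) on day 7. *Col1a1* (chr11:94936224-94953042 on the plus strand), the α1 chain of type I collagen, the main protein of scar, was at 24.5, 30.97, 29.9 and 21.2 TPM in sham, 73.7, 101, 71.1 and 108 in day 1 AMI and 1509, 701, 411 and 727 in day 7 AMI. Its log2 FC was 1.42 ± 0.29 on day 1 and 4.42 ± 0.32 on day 7 (adjusted p = 0.00147 and 1.11e-07). Day 7 AMI replicate 1 stood well above the other day 7 hearts, and without it the day 7 log2 FC was 3.98 ± 0.20. *Col1a2* (chr6:4504814-4541544 on the plus strand), the α2 chain that joins α1 in the type I helix, was at 25.2, 33.1, 35.01 and 28.5 TPM in sham, 81.6, 101, 79.04 and 112 in day 1 AMI and 1312, 761, 469 and 718 in day 7 AMI. Its log2 FCs were 1.28 ± 0.23 and 4.18 ± 0.25, next to those of *Col1a1*, and replicate 1 was again the highest day 7 heart.

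*Col3a1* had the highest mean level in each of the 3 groups. Mean levels in sham ran *Col3a1* (71.4 ± 13.3 TPM, SD, n = 4), *Col1a2* (30.5 ± 4.44), *Col6a1* (26.8 ± 5.34), *Col1a1* (26.6 ± 4.62), *Col6a2* (24.7 ± 6.14) and *Col15a1* (21.7 ± 8.36), and the 5 after *Col3a1* lay within each other's spread. In day 7 AMI the order was *Col3a1* (1606 ± 308), *Col1a1* (837 ± 471), *Col1a2* (815 ± 356), *Col15a1* (213 ± 31.4), *Col6a1* (163 ± 14.0) and *Col6a2* (148 ± 14.0). There the type I chains did not differ from each other beyond their spread, and *Col15a1* stood between them and type VI.

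**Figure D3:**
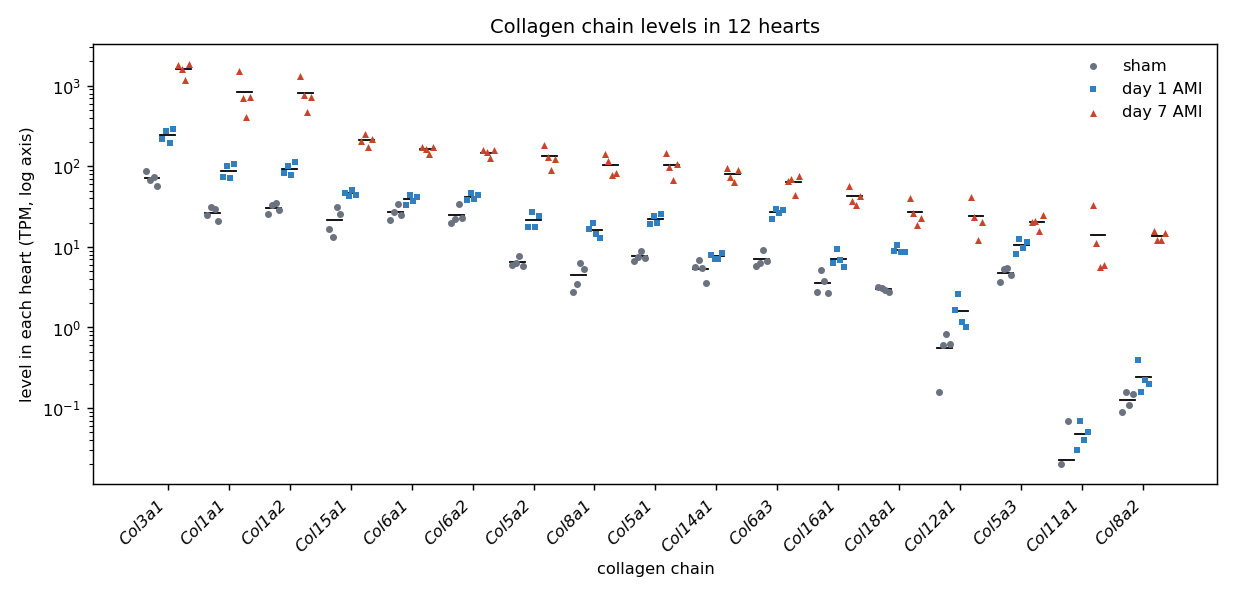
Level (TPM, log axis) of the 17 chains with a group mean of 10 TPM or more; each point is a heart, bars are group means. Day 7 AMI hearts lie above all others for each chain shown, and 2 sham hearts at 0 TPM for *Col11a1* cannot be drawn on the log axis.

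Type V chains co-assemble with type I and start new fibrils. *Col5a1*, present in most type V molecules, was at 6.71, 7.44, 8.96 and 7.31 TPM in sham, 19.1, 24.5, 19.98 and 25.7 in day 1 AMI and 146, 97.4, 68.3 and 107 in day 7 AMI, with log2 FCs of 1.29 ± 0.20 and 3.16 ± 0.21. *Col5a2*, its partner chain, which lies 24.6 kb from *Col3a1* on the opposite strand, was at 6.02, 6.26, 7.62 and 5.75, 17.9, 27.2, 17.7 and 23.8 and 186, 131, 90.98 and 124 TPM in the same order of groups, with log2 FCs of 1.43 ± 0.19 and 3.81 ± 0.20. Both rose in each step and no groups overlapped. *Col5a3*, the less common chain of that type, was at 3.69, 5.32, 5.51 and 4.43, 8.11, 12.5, 9.75 and 11.3 and 20.2, 21.2, 15.8 and 24.6 TPM. Its changes were smaller. The log2 FC of 0.83 ± 0.14 on day 1 was under the FC minimum (adjusted p = 0.00038), the day 7 value was 1.56 ± 0.14 (adjusted p = 5.72e-07), and the step from day 1 to day 7 was 0.73 ± 0.13 (adjusted p = 0.000545). *Col27a1*, a fibril-forming chain best known from cartilage, rose in each step, with 0.47, 0.77, 0.87 and 0.87 TPM in sham, 2.95, 3.68, 2.69 and 2.44 in day 1 AMI and 9.15, 6.52, 6.55 and 8.68 in day 7 AMI. Its log2 FC from day 1 to day 7 was 1.04 ± 0.13, close to the minimum, and it missed the minimum without day 1 AMI replicate 4 or day 7 AMI replicate 1, at values down to 0.91.

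Fibril-forming chains that were nearly silent in sham hearts appeared in day 7 AMI. *Col11a1*, which sets fibril width in cartilage and also joins type V molecules, had 3, 0, 6 and 0 counts in the sham hearts, 4, 11, 4 and 9 in day 1 AMI and 3671, 921, 467 and 611 in day 7 AMI. In TPM the day 7 hearts were at 33.2, 11.3, 5.57 and 5.97, with replicate 1 above the 3 others combined, and the log2 FC against sham was 8.72 ± 0.85 (adjusted p = 1.3e-06). It was 7.79 without day 7 AMI replicate 1 and 9.83 without sham replicate 3, and it rests on 9 counts in all sham hearts. The log2 FC on day 1, 1.08 ± 1.64, did not pass (adjusted p = 0.624). *Col2a1*, the main fibril chain of cartilage, had 1, 3, 2 and 1 counts in sham, 1, 9, 2 and 0 in day 1 AMI and 117, 60, 46 and 91 in day 7 AMI, where it reached 1.21, 0.78, 0.57 and 1.73 TPM (log2 FC 4.96 ± 0.58; adjusted p = 6.34e-06). *Col24a1*, a minor fibril-forming chain found in bone, had 1, 0, 3 and 2 counts in sham, 0, 1, 0 and 3 in day 1 AMI and 59, 93, 34 and 120 in day 7 AMI, or 0.59, 1.53, 0.33 and 1.79 TPM on day 7 (log2 FC 5.15 ± 0.65; adjusted p = 1.14e-05). In each of these 3 chains the lowest day 7 count was above the highest count of the other 8 hearts. All 3 reached the filter on low counts only through day 7 AMI hearts. Being tested at all thus favoured a rise, which their adjusted p-values do not allow for. *Col11a2*, the partner of *Col11a1* in cartilage fibrils, did not pass in any comparison and had 41 to 88 counts in sham, 60 to 92 in day 1 AMI and 63 to 103 in day 7 AMI hearts. Its TPM went from 0.59 to 2.26 within the sham hearts, a wider spread than that of its counts.

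**Figure D4:**
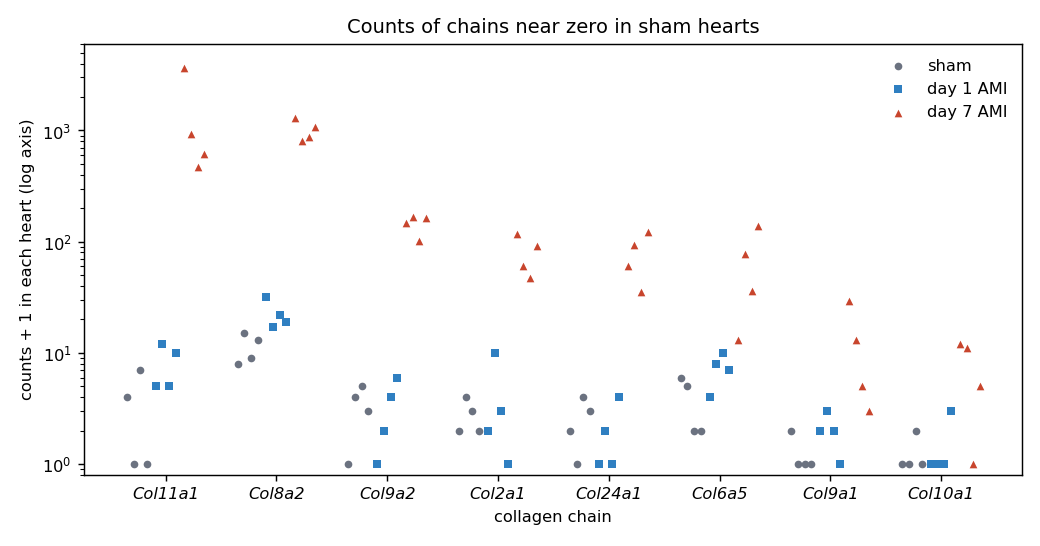
Counts plus 1 (log axis) in each heart for 8 chains that were rare in sham hearts. For the 6 leftmost chains, *Col11a1*, *Col8a2*, *Col9a2*, *Col2a1*, *Col24a1* and *Col6a5*, each day 7 AMI heart lies above each sham heart, while *Col9a1* and *Col10a1* stay near the floor of 3 counts in some day 7 hearts.

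Fibril-associated (FACIT) chains lie on fibril surfaces and link them to other matrix. *Col12a1*, made by dense connective tissue under load, had the largest log2 FC of the 10 chains that rose on day 1, 2.11 ± 0.44 (adjusted p = 0.0019), and reached 5.60 ± 0.45 on day 7 (adjusted p = 2.45e-07). It was at 0.16, 0.61, 0.82 and 0.63 TPM in sham, 1.64, 2.60, 1.18 and 1.02 in day 1 AMI and 41.6, 23.4, 12.01 and 20.3 in day 7 AMI. *Col14a1*, its close relative, which regulates fibril growth, was at 5.62, 6.83, 5.54 and 3.54 TPM in sham, 8.0, 7.03, 7.10 and 8.30 in day 1 AMI and 95.3, 72.6, 63.7 and 89.1 in day 7 AMI. Its day 1 log2 FC of 0.25 ± 0.14 did not pass (adjusted p = 0.178), and it rose from day 1 to day 7 by 3.18 ± 0.15 (adjusted p = 4.02e-09). *Col16a1*, found at fibrils and cell surfaces, was at 2.75, 5.23, 3.72 and 2.64, 6.32, 9.43, 6.93 and 5.61 and 56.2, 37.3, 33.3 and 43.1 TPM in the 3 groups. All its day 1 AMI hearts lay above sham in normalized counts, but the log2 FC of 0.91 ± 0.22 was under the minimum (adjusted p = 0.00481), and on day 7 it was 3.22 ± 0.23.

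Type IX chains, which decorate cartilage fibrils, moved unequally. *Col9a2* had 0, 3, 4 and 2 counts in sham, 0, 1, 3 and 5 in day 1 AMI and 147, 166, 100 and 163 in day 7 AMI hearts, which were at 3.73, 6.05, 2.82 and 6.74 TPM. Its log2 FC against sham was 5.52 ± 0.48 on day 7 (adjusted p = 4.5e-07) and -0.49 ± 0.78 on day 1 (adjusted p = 0.635). Both *Col9a2* and *Col9a3* reached the filter on low counts only through day 7 AMI hearts, which favours a difference. *Col9a3* had 2, 9, 9 and 8 counts in sham, 7, 7, 9 and 8 in day 1 AMI and 24, 10, 22 and 17 in day 7 AMI; it rose from day 1 to day 7 (log2 FC 1.29 ± 0.37; adjusted p = 0.0109), and the value against sham, 0.94 ± 0.38, was under the minimum (adjusted p = 0.045). Of its exon bases, 6.07% are shared with *Tcfl5* on the other strand, and the strand counted is not given in the sources used here. *Col9a1* did not reach the filter, at 28, 12, 4 and 2 counts in day 7 AMI and at most 2 in any other heart. DESeq2, and edgeR with no filter on low counts, called it higher on day 7 against sham (log2 FC 4.73 and 4.57). *Col22a1*, a chain of tissue junctions, had 10, 11, 19 and 21 counts in sham, 12, 10, 22 and 15 in day 1 AMI and 48, 50, 42 and 52 in day 7 AMI, and rose on day 7 (log2 FC 1.21 ± 0.31; adjusted p = 0.00361). *Col20a1* did not pass, with a log2 FC of 0.54 ± 0.26 against sham and 0.87 ± 0.25 against day 1 AMI, and *Col19a1* had at most 1 count in any heart.

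Type VI collagen forms beaded filaments that tie cells to the matrix, and its 3 main chains did not move alike on day 1. *Col6a1* was at 21.4, 27.4, 33.9 and 24.6 TPM in sham, 33.05, 44.5, 37.1 and 41.7 in day 1 AMI and 174, 163, 144 and 173 in day 7 AMI. *Col6a2*, which lies 85.2 kb from it on chromosome 10, was at 19.9, 22.2, 33.7 and 22.9, 37.7, 46.4, 38.8 and 43.6 and 158, 149.7, 128 and 157 TPM. *Col6a3*, the longest chain, was at 5.87, 6.32, 9.11 and 6.77, 22.5, 29.6, 26.5 and 28.9 and 65.5, 68.9, 43.4 and 76.5 TPM. On day 1 *Col6a3* rose by 1.62 ± 0.16 on the log2 scale (adjusted p = 1.21e-05), whereas the log2 FC was 0.22 ± 0.11 for *Col6a1* (adjusted p = 0.122) and 0.44 ± 0.12 for *Col6a2* (adjusted p = 0.0123), and neither passed. By day 7 the log2 FCs were 2.26 ± 0.16, 2.05 ± 0.12 and 2.03 ± 0.13, and from day 1 to day 7 *Col6a3* did not reach the FC minimum (0.64 ± 0.15; adjusted p = 0.0035). The alternative chains *Col6a6*, *Col6a5* and *Col6a4*, which can stand in for *Col6a3*, lie side by side on chromosome 9. *Col6a5* had 5, 4, 1 and 1 counts in sham, 3, 7, 9 and 6 in day 1 AMI and 12, 76, 35 and 138 in day 7 AMI, and rose on day 7 (log2 FC 4.11 ± 0.75; adjusted p = 0.000288; 3.50 without day 7 AMI replicate 4). It reached the filter on low counts only through day 7 AMI hearts, which favours a difference. *Col6a6* had a log2 FC of -0.92 ± 0.22 on day 1 (adjusted p = 0.00474), with all 4 day 1 AMI hearts below the sham hearts in normalized counts, and -0.60 ± 0.22 on day 7 (adjusted p = 0.0286); both were under the FC minimum. *Col6a4* had at most 3 counts in any heart and did not reach the filter.

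The short chains of type VIII build hexagonal networks and are known from the cornea and from injured vessels. *Col8a1* was at 2.74, 3.44, 6.26 and 5.28 TPM in sham, 16.8, 19.8, 14.6 and 12.9 in day 1 AMI and 142, 117, 77.4 and 82.3 in day 7 AMI, and rose on day 1 (1.55 ± 0.25; adjusted p = 0.000307) and day 7 (4.02 ± 0.27; adjusted p = 5.85e-08). *Col8a2* was at 0.09, 0.16, 0.11 and 0.15, 0.39, 0.16, 0.22 and 0.20 and 15.6, 12.1, 12.1 and 14.8 TPM. *Col8a2* had only 7 to 14 counts in a sham heart and 16 to 31 in a day 1 AMI heart, a log2 FC of 0.56 ± 0.30 that did not pass (adjusted p = 0.143). It then had the smallest adjusted p of the 38 on day 7, with a log2 FC of 6.17 ± 0.23 (adjusted p = 4.18e-10). The day 7 hearts agreed closely, at 13.6 ± 1.81 TPM (SD, n = 4). *Col10a1*, the marker chain of hypertrophic cartilage, had 11, 10, 0 and 4 counts in day 7 AMI and at most 2 elsewhere, and did not reach the filter. DESeq2, and edgeR with no filter on low counts, called it higher on day 7 against sham (log2 FC 3.89 and 3.74).

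The multiplexins lie in and beneath basement membranes and carry fragments that restrain vessel growth. *Col15a1* was at 16.6, 13.3, 31.6 and 25.4 TPM in sham, 46.8, 43.2, 50.9 and 44.3 in day 1 AMI and 207, 249.9, 174 and 220.4 in day 7 AMI. Its day 1 hearts lay above sham, at a log2 FC of 0.86 ± 0.21 (adjusted p = 0.00573) that was under the minimum, and it rose on day 7 by 2.54 ± 0.22. *Col18a1*, the source of endostatin, was at 3.21, 3.11, 2.88 and 2.74, 8.90, 10.6, 8.68 and 8.55 and 39.8, 26.4, 18.8 and 22.8 TPM, and rose on day 1 (1.41 ± 0.18) and on day 7 (2.65 ± 0.18). Its step from day 1 to day 7 was 1.24 ± 0.17, and without day 7 AMI replicate 1, the highest day 7 heart, the value was just under the minimum.

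*Col7a1*, which forms the fibrils that anchor skin, was at 0.12, 0.40, 0.24 and 0.41 TPM in sham, 0.17, 0.54, 0.53 and 0.63 in day 1 AMI and 2.80, 4.49, 1.88 and 3.17 in day 7 AMI (log2 FC on day 7 2.68 ± 0.43; adjusted p = 9.72e-05; 2.04 without day 7 AMI replicate 1). In counts it had 409, 133, 87 and 102 in day 7 AMI, so replicate 1 was the highest heart in counts and replicate 2 in TPM. *Col26a1* was at 0.18, 0.10, 0.18 and 0.34, 0.19, 0.33, 0.34 and 0.42 and 1.97, 1.47, 1.56 and 1.27 TPM (log2 FC 2.73 ± 0.35; adjusted p = 1.41e-05). *Col28a1*, a chain near peripheral nerves, was at 0.03, 0.30, 0.27 and 0.43, 0.20, 0.43, 0.21 and 0.55 and 0.94, 1.26, 1.43 and 0.96 TPM (log2 FC 1.77 ± 0.45; adjusted p = 0.0035). These 3 rose on day 7 against sham and against day 1 AMI, and none passed on day 1. Summed over 5 Schwann cell markers the level was 4.93 to 6.77 TPM in sham, 6.43 to 8.64 in day 1 AMI and 6.36 to 9.04 in day 7 AMI, and none of the 4 tested markers passed in edgeR. The median log2 FC of those 4 in edgeR was -0.09 in day 1 AMI and -0.25 in day 7 AMI against sham. *Cdh19* was lower at an unadjusted p under 0.05 on both days against sham and *Sox10* from day 1 to day 7, which DESeq2 called.

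The transmembrane chains were the class in which no member rose. *Col13a1*, a membrane-bound collagen of cell junctions, had 24, 46, 29 and 30 counts in sham, 23, 32, 20 and 61 in day 1 AMI and 23, 19, 13 and 16 in day 7 AMI, and fell on day 7 (log2 FC -1.28 ± 0.33; adjusted p = 0.0042). With library sizes in place of TMM its log2 FC was -0.89 and did not pass, and on log2(TPM + 1) it was -0.24 (limma's adjusted p = 0.0825). On day 1 the value was -0.44 ± 0.31 (adjusted p = 0.281) and from day 1 to day 7 -0.84 ± 0.33 (adjusted p = 0.05). *Col23a1* passed in no comparison, at 34 to 69 counts in sham, 49 to 81 in day 1 AMI and 50 to 89 in day 7 AMI. *Col17a1*, a hemidesmosome chain of skin, reached at most 10 counts and *Col25a1*, a neuronal chain, at most 19; neither reached the filter, and neither was called by DESeq2 or by edgeR with no filter on low counts.

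Ratios of 2 genes within a heart do not depend on how libraries are scaled, and 12 of them were compared between groups on a log2 scale of counts with a two-sided exact permutation test (4 hearts against 4). The smallest p such a test can give is 0.0286, which after Benjamini-Hochberg adjustment over the 36 tests is 0.0447, and each ratio said below to differ stood at that value with hearts that did not overlap. The pairs were chosen with earlier results of these data known, and this adjustment does not allow for that. The ratio *Col1a1*:*Col1a2* did not pass in any comparison, with differences of 0.13 on day 1 and 0.19 on day 7 against sham (adjusted p = 0.24 and 0.213 by the exact permutation test). *Col3a1*:*Col1a1* in day 7 AMI lay below its day 1 AMI value, at a log2 difference of -0.65; on TPM the difference was -0.40 and did not pass (adjusted p = 0.158 by the exact permutation test). Within the day 7 hearts the TPM ratio of *Col3a1* to *Col1a1* was 1.18, 2.29, 2.85 and 2.56, and replicate 1 stood apart.

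Within type VI, *Col6a3*:*Col6a1* in day 1 AMI exceeded that in sham by 1.42 on the log2 scale and decreased by 1.21 from day 1 to day 7. In TPM it was 0.275, 0.230, 0.269 and 0.275 in sham, 0.681, 0.665, 0.715 and 0.693 in day 1 AMI, and 0.377, 0.422, 0.302 and 0.443 in day 7 AMI. Day 7 and sham differed by 0.21 on counts (adjusted p = 0.0823 by the exact permutation test) and by 0.55 on TPM, which passed. *Col6a1*:*Col6a2* moved far less, with a log2 difference of -0.23 in day 1 AMI against sham and 0.24 in day 7 AMI against day 1 AMI, both past the test. Day 7 AMI and sham differed by 0.01.

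Within type VIII, *Col8a2*:*Col8a1* in day 1 AMI differed from sham by -1.07 on the log2 scale, which did not pass (adjusted p = 0.0823 by the exact permutation test). Day 7 AMI exceeded sham by 2.11 and day 1 AMI by 3.18, and both passed. In day 7 AMI hearts the TPM ratio was 0.109, 0.103, 0.156 and 0.180, so *Col8a1* stayed the more abundant chain. Within type V, *Col5a3*:*Col5a1* was lower in day 1 AMI than in sham (log2 difference -0.47) and lower again in day 7 AMI (-1.55 against sham), and *Col5a1*:*Col5a2* was lower in day 7 AMI (-0.67 against sham). *Col12a1*:*Col14a1* was higher than sham by 1.82 in day 1 AMI and by 2.04 in day 7 AMI; on TPM the day 1 difference was 1.13 and did not pass (adjusted p = 0.229 by the exact permutation test); sham TPM of *Col12a1* spread from 0.16 to 0.82. *Col15a1*:*Col18a1* did not pass in any comparison.

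**Figure D5:**
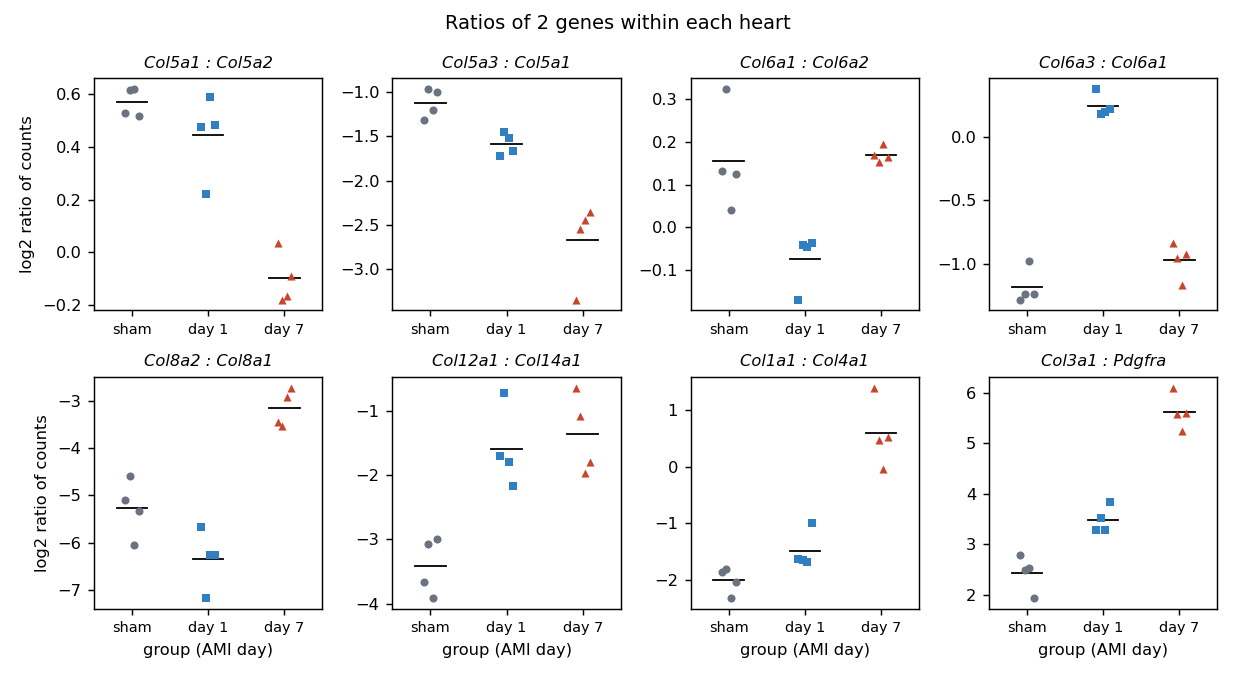
Log2 ratio of counts (y axis, 0.5 added to each count) of 8 gene pairs in each heart by group, bars at group means. *Col6a3*:*Col6a1* is high in the 4 day 1 AMI hearts alone, and *Col8a2*:*Col8a1* is highest in the 4 day 7 AMI hearts.

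The type IV chains of basement membranes were set beside the others. All 6 were tested: none rose on day 1 (0 with DESeq2, 2 with limma, and 4 at an unadjusted p under 0.05 in edgeR), 2 fell (*Col4a3* and *Col4a4*, also with DESeq2 but in neither limma fit), and 5 rose on day 7, with a median log2 FC of 1.35. Over all genes tested, 2.98% fell on day 1 and 15.3% rose on day 7. The summed type IV level was 159 to 255 TPM in sham, 370 to 525 in day 1 AMI and 696 to 903 in day 7 AMI, so that it was near the sum of the 38 other chains in sham and well below it in day 7 AMI. The ratio *Col1a1*:*Col4a1* was higher than sham by 0.52 on the log2 scale in day 1 AMI and by 2.59 in day 7 AMI, both past the test. In TPM it was 0.290, 0.313, 0.222 and 0.274 in sham and 2.85, 1.32, 0.994 and 1.43 in day 7 AMI. On day 1 the highest of the 4 hearts, replicate 4, was at 0.539 and the others at 0.343 to 0.356.

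Levels of collagen genes were also set beside the fibroblast receptor gene *Pdgfra*. *Pdgfra* was under the FC minimum in day 1 AMI (log2 FC 0.53) and day 7 AMI (0.61) against sham. It was higher at an unadjusted p under 0.05 in edgeR on both days. In normalized counts all hearts of each AMI group lay above all sham hearts. *Col1a1*:*Pdgfra* was higher than sham by 0.88 on day 1 and 3.68 on day 7, and *Col3a1*:*Pdgfra* by 1.04 and 3.20, all past the test. For the marker counts that follow, 7.79% of all genes tested rose and 2.98% fell on day 1 against sham. On day 7 against sham 15.3% rose and 5.88% fell, and from day 1 to day 7 8.55% rose. Of the 8 fibroblast markers, none passed on day 1 in edgeR, DESeq2 or limma, and at an unadjusted p under 0.05 in edgeR 3 were higher and 3 lower. On day 7, 3 rose (*Tcf21*, *Lum* and *Mfap4*) and *Gsn* fell, and the list's summed level was 953 to 1222 TPM in sham, 788 to 1142 in day 1 AMI and 1721 to 1933 in day 7 AMI. Of the 6 activated fibroblast markers 3 rose on day 1 (*Postn*, *Cthrc1* and *Tnc*) and 5 on day 7, with a summed level of 64.5 to 159 TPM in sham, 157 to 296 in day 1 AMI and 1114 to 2174 in day 7 AMI. Markers of other cells moved too. Of the 5 macrophage markers 2 rose on day 1 and 4 on day 7, with a summed level of 190.4 to 346 TPM in sham, 473 to 692 in day 1 AMI and 846 to 1384 in day 7 AMI. Of the 7 cardiomyocyte markers 5 fell on day 7, also with DESeq2, and 0 fell in either limma fit. Of the 5 erythroid markers 3 fell on each day against sham. DESeq2 on 12 hearts called 3 lower on day 1 and 2 on day 7. With only the groups compared it called 1 and 0, and limma called 0 on both days. The erythroid sum ran from 1617 to 15170 TPM in sham, 1645 to 2542 in day 1 AMI and 1172 to 4820 in day 7 AMI. The 5 endothelial markers summed to 211 to 265 TPM in sham, 241 to 259 in day 1 AMI and 463 to 518 in day 7 AMI, and *Cdh5* rose from day 1 to day 7. Against sham on day 7 none of them was called by edgeR or DESeq2, 2 were by limma, and 4 were higher at an unadjusted p under 0.05 in edgeR. The median log2 FC of these 5 in edgeR was -0.30 in day 1 AMI and 0.33 in day 7 AMI against sham. The part of these cells in the collagen changes was not tested.

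The 6 markers of cartilage cells were set beside the chains known from cartilage. *Acan*, *Comp*, *Sox9* and *Matn3* rose on day 7 against sham, *Cnmd* fell and *Chad* did not pass, where 15.3% of all genes rose and 5.88% fell. *Acan*, the large cartilage proteoglycan, also rose on day 1. The summed level of the 6 was 4.25 to 8.68 TPM in sham, 6.11 to 12.1 in day 1 AMI and 59.7 to 93.5 in day 7 AMI, and *Matn3* was at or under the floor in each sham and day 1 AMI heart. *Matn3* thus reached the filter on low counts only through day 7 AMI hearts, which favours a difference. Of the 4 bone markers *Bglap* and *Ibsp* were at or under the floor in all hearts, and *Spp1*, which macrophages also make, rose on both days. *Dmp1* was at or under the floor in all sham hearts but not in all hearts of either AMI group, and it did not reach the filter. Of the 4 keratinocyte markers *Krt5* and *Dsg3* were at or under the floor in all hearts. *Krt14* rose on day 1 against sham (log2 FC 2.57), where 7.79% of all genes rose. On day 7 its log2 FC of 1.79 did not pass in edgeR but was higher at an unadjusted p under 0.05, and *Trp63* was lower at that level. The part of cells with these markers in the values of *Col2a1*, *Col11a1* and *Col9a2* was not tested.

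Genes that act on collagens were followed from a list of 55, of which 54 were tested. On day 1, 12 rose and none fell (0 with DESeq2 and limma, 5 at an unadjusted p under 0.05 in edgeR), and on day 7, 27 rose and 1 fell against sham. From day 1 to day 7, 18 rose and 2 fell. Over all genes tested, 7.79% rose and 2.98% fell on day 1, and 15.3% rose and 5.88% fell on day 7 against sham. From day 1 to day 7, 8.55% rose and 2.69% fell, so the 2 of 54 that fell in that step were near the share over all genes. Of the 35 processing genes 8 rose on day 1 and 17 on day 7. The largest day 7 changes among them were in *P4ha3*, a subunit of the prolyl hydroxylase that stabilizes the helix (log2 FC 6.35 ± 0.41), *Lox* and *Loxl3*, which cross-link fibrils (5.12 ± 0.35 and 3.64 ± 0.31), and *Adamts2*, which trims procollagen (2.76 ± 0.11). *P4ha3* was at or under the floor in each sham heart, so its log2 FC rests on very few sham counts. It reached the filter on low counts only through day 7 AMI hearts, which favours a difference. *Tll2* fell (-1.32 ± 0.46), at a group mean of 0.323 TPM in sham and 0.188 in day 7 AMI, and it did not pass with library sizes in place of TMM. *P4ha3*, *Lox*, *Loxl3* and *Adamts2* stood above sham in all 4 day 7 hearts in normalized counts, as 28.3% of all genes did. They were picked for the size of that rise, which favours such a gap.

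Of the 10 receptor genes, 9 of them tested, 2 rose on day 1 and 5 on day 7, where 7.79% and 15.3% of all genes rose. *Itga11*, a fibroblast integrin for fibrillar collagen (3.00 ± 0.21), *Itga2* (2.39 ± 0.26), *Mrc2*, which takes up cleaved collagen (2.34 ± 0.18), and *Lair1*, an inhibitory collagen receptor of leukocytes (2.10 ± 0.25), had the largest log2 FCs against sham. Of the 10 degradation genes 2 rose on day 1 and 5 on day 7, led by *Mmp14* (3.11 ± 0.28), *Ctsk* (2.68 ± 0.14), *Mmp2* (2.18 ± 0.14) and *Fap* (2.09 ± 0.22). *Mmp9*, the neutrophil gelatinase, rose on day 1 (3.33 ± 0.49) and fell from day 1 to day 7 (-4.30 ± 0.52), and the day 1 value was 4.08 without sham replicate 2. *Mmp8*, the neutrophil collagenase, fell from day 1 to day 7 (-2.39 ± 0.79; -1.78 without day 1 AMI replicate 2). The 5 neutrophil markers summed to 4.2 to 234 TPM in sham, 112 to 465 in day 1 AMI and 13.0 to 174 in day 7 AMI, and their part in the *Mmp8* and *Mmp9* values was not tested.

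Hearts of a group differed in how much collagen RNA they held. Among the 4 day 7 AMI hearts, replicate 1 had the highest normalized count for 22 of the 32 tested chains and replicate 3 the lowest for 20. In sham and day 1 AMI no heart was highest for more than 16 chains. Leaving out day 7 AMI replicate 1 gave 26 chains that rose against sham, as with all hearts, and 23 that rose against day 1 AMI.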

How the data were processed

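Per the labels, 12 libraries were made from whole mouse hearts, 4 in each group. The authors trimmed paired-end reads, aligned them with STAR 2.4.0j (build mm10 per the labels, an Ensembl GRCm38 annotation) and deposited raw counts per gene, whole numbers with no normalization. TPM, estimated by the authors with RSEM, were deposited beside them. The counter behind the counts, the strand and the handling of reads that fit several genes are not given in the sources used here. Counts and TPM of a rare gene can therefore differ.

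Counts were fitted with edgeR 4.0.16 (R 4.3.3; TMM, filterByExpr by group, quasi-likelihood test, 1 fit of 12 libraries; 15306 genes tested). Standard errors of log2 FCs follow from the F statistic, and adjusted p-values are over all genes tested. Alternatives were DESeq2 1.42.0, limma 3.58.1 on log2(TPM + 1) and log2(TPM + 0.1), whose FCs understate changes of rare genes, other normalizations, filters and sample sets, a block for the replicate number, and each heart left out in turn. Ratios used log2 counts with 0.5 added and scipy 1.17.1. The code was tested on simulated data. The study's thresholds (FC of 2, FDR of 0.05) were kept.

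All 38 chains are named, with a value per heart for chains that passed and had a mean of 1 TPM or more; other genes are named by the size of their day 7 change within hand-written lists. The chains, lists and ratios were chosen with earlier results of these data known. Gene positions are from GENCODE M21 (GRCm38), with exons shared with other genes checked. No library repeated another: counts of any 2 hearts of a group differed well beyond sampling noise (chi-square of 9.41 or more for each degree of freedom). Figures were drawn with matplotlib 3.10.9. P-values set a group difference against the spread between these hearts.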

Additional observations from a re-analysis of the deposited data

Results flagged for a closer look

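In 96 sets of 4 hearts (32 tested chains in 3 groups) a gap test on normalized counts marked 3 hearts as far from the others of their group, and chance alone marks about 1 set in 20. The gap divided by the range was 0.926 for *Col11a2* in day 7 AMI replicate 1, the highest of its group at 103 counts where the others had 63 to 73. It was 0.862 for *Col9a3* in sham replicate 1, the lowest at 2 counts where the others had 8 to 9. It was 0.851 for *Col7a1* in day 1 AMI replicate 4, the highest at 38 counts where the others had 26 to 33.

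A further 4 chains stood below sham on day 1 and above it on day 7, with a step between the AMI days that passed, while none of the day 1 values passed. They are listed because they have this pattern, and *Col24a1*, *Col9a2* and *Col9a3* reached the filter on low counts only through day 7 hearts, which favours a positive step, so the steps are given as values. The log2 FC from day 1 to day 7 was 6.17 for *Col24a1*, whose day 1 value against sham was -1.02 ± 1.13 (SE), and the step was 7.41 without day 1 AMI replicate 4. It was 6.01 for *Col9a2* (day 1 value -0.49 ± 0.78), and 6.68 without day 1 AMI replicate 4. It was 1.29 for *Col9a3* (day 1 value -0.35 ± 0.42, positive on both TPM scales) and 1.78 for *Col22a1* (day 1 value -0.57 ± 0.34).

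Among the 6 chains that did not reach the filter on low counts, 3 had more than the 3 counts of the floor in an AMI heart whose normalized count was above every sham heart. In the heart with the highest normalized count, *Col9a1* reached 28 counts in day 7 AMI replicate 1, where sham hearts had at most 1. *Col10a1* reached 10 counts in day 7 AMI replicate 2, where sham hearts had at most 1. *Col17a1* reached 10 counts in day 1 AMI replicate 1, where sham hearts had at most 4. *Col25a1* reached 19 counts in day 7 AMI replicate 3, above the sham maximum of 16 in counts but below it in normalized counts.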

How the results depend on the processing

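Counts of chains that rose kept within 1.5 times of the values reported under every alternative run. Chains that fell on day 7 against sham numbered 1, and 0 with library sizes alone and with limma on log2(TPM + 1) or log2(TPM + 0.1). With no FC minimum, 1 chain was lower on day 1 against sham, 2 on day 7 against sham and 1 from day 1 to day 7. With each heart left out in turn, 10 to 11 chains rose on day 1, 26 to 27 on day 7 and 23 to 26 from day 1 to day 7, and 0 to 1, 1 and 0 to 1 fell.

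Genes of the processing, receptor and degradation lists that rose on day 1 numbered 12, and 20 with library sizes alone, 21 with limma on log2(TPM + 0.1) and 32 with no FC minimum, which also gave 5 lower. On day 7 against sham 1 fell, and 0 with library sizes alone and with both limma fits, 4 with no FC minimum, and 0 to 1 with hearts left out. From day 1 to day 7, 2 fell, and 1 with each limma fit, 4 with no FC minimum, which also gave 32 higher, and 1 to 2 with hearts left out.

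The labels do not say whether hearts with the same replicate number share more than the number. Deviations of such hearts from the group means correlated at -0.304 to 0.271 over 12 pairs, and those of other pairs at -0.348 to 0.287. Not every heart correlated best with its own number. With a replicate block, 10 chains rose on day 1 and 26 on day 7 against sham and 25 from day 1 to day 7, as without it. The day 1 log2 FC of *Col9a3*, which did not pass, was 0.63 on log2(TPM + 0.1) and 0.18 on log2(TPM + 1), the reverse of its sign on counts; the cause was not tested. Ratios past the test numbered 7, 7 and 9 in the 3 comparisons, and 6, 8 and 8 on TPM: *Col3a1*:*Col1a1* from day 1 to day 7 (-0.40) and *Col12a1*:*Col14a1* on day 1 (1.13) no longer passed, and *Col6a3*:*Col6a1* on day 7 (0.55) did. Of called values of single chains, 17 of 558 missed the threshold under the other alternatives and 3 of 496 with a heart left out. Ratios with hearts left out are values only, since 3 hearts against 4 cannot pass after adjustment, and the paired form was not run, since 4 pairs cannot go below 0.125. Chains under about 10 counts in a heart are limited by counting error.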
